A study of Mus musculus with 2 samples.

Results

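Brown fat thermogenic genes were compared between the atherosclerosis-prone and the atherosclerosis-resistant stretch of the aorta in apoE-/- mice, whose lack of apolipoprotein E leads to atherosclerosis. The set held 8 genes, Ucp1, Cidea, Cox7a1, Cox8b, Dio2, Elovl3, Ppargc1a and Prdm16, and comprised every gene probe that carried one of these names on both arrays. These are 8 of 29273 gene names on the array and 9 of 41174 gene probes, 1 probe per gene except Ppargc1a, which had 2.

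Both groups were aortic wall of apoE-/- mice aged 16 weeks (6 mice, 3 males and 3 females) after perfusion with Triton X-100, a detergent used to strip the endothelium. The arch segment was the aortic root, the aortic arch and the proximal 2 mm of thoracic aorta, and it was set against the central thoracic aorta, the 6 mm that followed. Each segment gave 1 RNA pool of the 6 mice, and both pools went onto each of 2 Agilent arrays with the Cy3 and Cy5 dyes exchanged, so the arrays repeat 1 measurement. Each ± is the SD between the 2 arrays (n = 2, technical), no spread between mice was measured, no wild-type mice were analysed here and no test could be made. The labels name smooth muscle cells, but the RNA came from whole wall segments, in which fewer cells of a type and less RNA per cell cannot be told apart. Smooth muscle markers were well above background in both pools (12 of 12 compared), as were those of other cell types given below except the adipocyte marker Lep.

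Brown adipocytes burn fatty acids to make heat. Noradrenaline acts on beta-adrenergic receptors, cyclic AMP rises, lipolysis frees fatty acids, and these fuel the mitochondria and open UCP1, a carrier of the inner mitochondrial membrane that lets protons return without ATP synthesis. PRDM16 and PGC-1alpha (Ppargc1a) are transcriptional regulators of this programme, DIO2 makes active thyroid hormone inside the cell, and Cidea, Elovl3, Cox7a1 and Cox8b encode a lipid droplet protein, a fatty acid elongase and tissue-restricted subunits of cytochrome c oxidase. In mice the fat around the thoracic aorta is of the brown type.

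Ucp1, Cidea, Cox7a1, Cox8b and Dio2 were all higher in the arch pool, by 1.45-fold to 2.17-fold, whereas both regulators, Ppargc1a and Prdm16, differed by 1.05-fold or less and Elovl3 was lower in the arch. Of the 9 probes, 1 (Dio2) passed the 2-fold rule, meaning a mean of 2-fold or more and 1.5-fold or more the same way on both arrays. The same rule was passed in the arch direction by 120 of 32176 probes compared, or 0.373%, and in the thoracic direction by 41, or 0.127%. At the lower limit of 1.5-fold on each array, 3 of the 9 (Dio2, Cox7a1 and Cox8b) were higher in the arch and 0 in the thoracic pool, against 1.05% and 0.32% of all probes. In the brightest 10% of probes, where these 3 lie, the 2-fold rule was passed by 0.684% in the arch direction and 0.218% in the thoracic direction, and the 1.5-fold limit by 2.45% and 0.59%. The median log2 ratio of arch over thoracic was 0.53 over the 9 probes and -0.0016 over all probes compared, and 95% of all probes lay between -0.29 and 0.42.

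**Figure D1:**
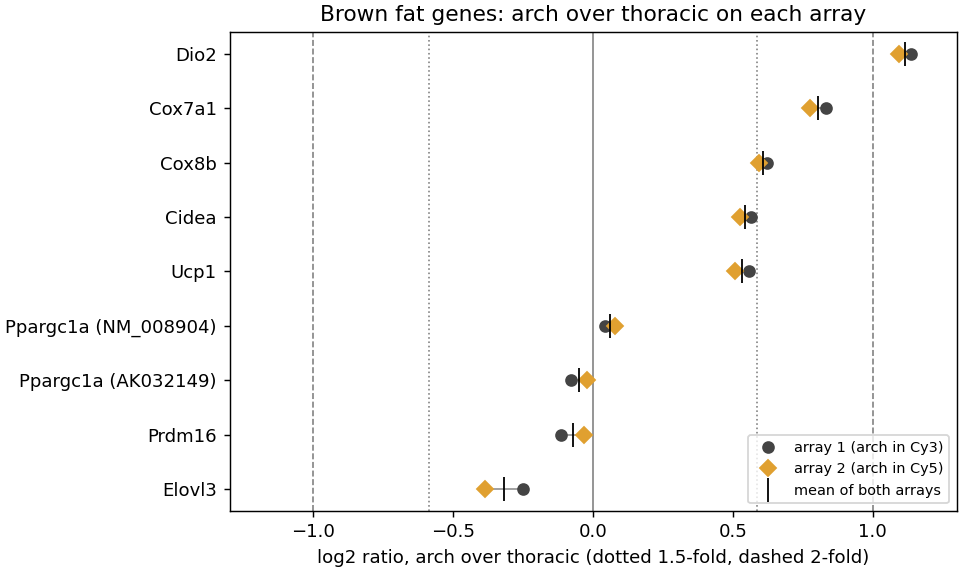
Log2 ratio of arch over thoracic (x axis) for the 9 probes (rows), with array 1 as circles, array 2 as diamonds and the mean as a bar. Dio2, Cox7a1, Cox8b, Cidea and Ucp1 lie between 0.51 and 1.14 on each array, the Ppargc1a and Prdm16 probes between -0.11 and 0.08, and Elovl3 between -0.38 and -0.25.

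The promoter windows of the genes that were higher together are shown to give the regulatory sequence beside the measurements. The RefSeq table (GRCm38.p6) holds 6 of the 8 genes and gives 250 bases before and 50 after each gene's start, and 4 of them are printed, 5′ to 3′ on the gene's strand. Capitals mark 3 motifs, each searched on both strands: the cAMP response element TGACGTCA, the TATA box TATAAA and the E-box CAGCTG, chosen after the windows had been read.
Dio2 (chr12:90738989-90739288, minus strand): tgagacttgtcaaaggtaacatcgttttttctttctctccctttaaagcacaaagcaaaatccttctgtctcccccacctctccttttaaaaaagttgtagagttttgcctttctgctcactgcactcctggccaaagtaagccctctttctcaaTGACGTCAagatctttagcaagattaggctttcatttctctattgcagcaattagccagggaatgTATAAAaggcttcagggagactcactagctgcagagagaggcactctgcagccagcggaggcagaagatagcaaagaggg
Cox7a1 (chr7:30183921-30184220, plus strand): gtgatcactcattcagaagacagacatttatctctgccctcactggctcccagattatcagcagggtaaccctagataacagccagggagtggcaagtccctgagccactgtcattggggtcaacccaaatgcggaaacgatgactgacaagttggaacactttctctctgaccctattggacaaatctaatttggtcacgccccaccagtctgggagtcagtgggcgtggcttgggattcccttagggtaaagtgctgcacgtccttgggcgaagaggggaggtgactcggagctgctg
Cox8b (chr7:140900397-140900696, minus strand): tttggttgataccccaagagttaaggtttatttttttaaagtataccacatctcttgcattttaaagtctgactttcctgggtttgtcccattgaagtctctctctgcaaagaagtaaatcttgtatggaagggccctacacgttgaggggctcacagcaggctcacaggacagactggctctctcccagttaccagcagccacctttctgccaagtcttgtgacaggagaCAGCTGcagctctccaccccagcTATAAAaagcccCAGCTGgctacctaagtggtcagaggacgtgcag
Ucp1 (chr8:83290098-83290397, plus strand): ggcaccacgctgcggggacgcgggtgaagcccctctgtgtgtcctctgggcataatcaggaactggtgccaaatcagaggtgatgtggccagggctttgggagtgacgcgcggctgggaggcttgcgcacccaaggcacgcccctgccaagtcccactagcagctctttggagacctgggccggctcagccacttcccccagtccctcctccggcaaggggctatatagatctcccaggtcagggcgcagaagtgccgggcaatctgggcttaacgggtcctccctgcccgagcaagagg
Dio2, the member with the largest difference, held 1 cAMP response element at -95 and 1 TATA box at -30 from its annotated start, counted to the first base of the motif. A cAMP response element was found in 1.79% and a TATA box in 13.6% of 32851 such windows. Cox8b held 1 TATA box and 2 E-boxes, a motif present in 16.3% of windows. In the Cox7a1 and Ucp1 windows none of the 3 motifs occurred. The core TGACG, which lies inside the full element, occurred in the windows of Ucp1 and Ppargc1a as well as Dio2, and in 20.8% of all windows. AAGGTCA, a site read by estrogen-related receptors, was in 0 of the 6 windows and in 4.72% of all. These matches describe the letters only, and no binding was measured.

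Among the effectors of heat production, Ucp1 had normalised intensities of 2486 on array 1 and 2408 on array 2 in the arch pool, against 1691 and 1694 in the thoracic pool. Intensities are in arbitrary units after background correction, scaling between the dyes and an added offset of 50, and levels of different probes are not comparable. The arch pool was 1.45-fold higher (log2 ratio 0.53 ± 0.03). That difference was larger than the SD between arrays but just short of 1.5-fold on each array (0.56 and 0.51). Of all probes compared, 1.49% had a ratio as high or higher. Among the 3218 probes in the brightest 10%, to which the Ucp1, Cidea, Cox7a1, Cox8b and Dio2 probes all belonged, that share was 3.57%.

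Cidea, a lipid droplet protein abundant in brown fat, gave 7042 and 6754 in the arch pool and 4758 and 4697 in the thoracic pool. The groups did not overlap, and the ratio (0.55 ± 0.03, 1.46-fold) lay 0.01 above that of Ucp1. As the arrays repeat 1 measurement, pools can fail to overlap at small ratios too, as with Prdm16 (-0.07). The share of all probes without overlap was not counted. The ranges of Cidea and Ucp1 over the arrays overlapped, so these neighbours in the order did not differ beyond their spread.

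Cox7a1 and Cox8b encode the forms of cytochrome c oxidase subunits VIIa and VIII that are found in heart muscle, skeletal muscle and brown fat. Cox7a1 stood at 1752 and 1643 in the arch pool against 982.6 and 960.6 in the thoracic pool, a 1.75-fold difference (0.80 ± 0.04) that 0.640% of probes reached. Cox8b stood at 2868 and 2835 in the arch pool against 1864 and 1878 in the thoracic pool, or 1.52-fold (0.61 ± 0.02). For each gene the arch values lay above the thoracic values on both arrays. Cox7a1 exceeded Cox8b by 0.21 on array 1 and 0.18 on array 2.

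Dio2, the type II deiodinase that converts thyroxine to the active hormone, showed the largest difference. Its intensities were 4434 and 3935 in the arch pool against 2016 and 1844 in the thoracic pool. The arch pool was 2.17-fold higher (1.12 ± 0.03), a ratio reached by 88 of the probes compared, or 0.273%, and by 15 probes (0.466%) in the brightest 10%. Dio2 lay above Cox7a1, the next member, by 0.30 and 0.32 on the arrays.

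**Figure D2:**
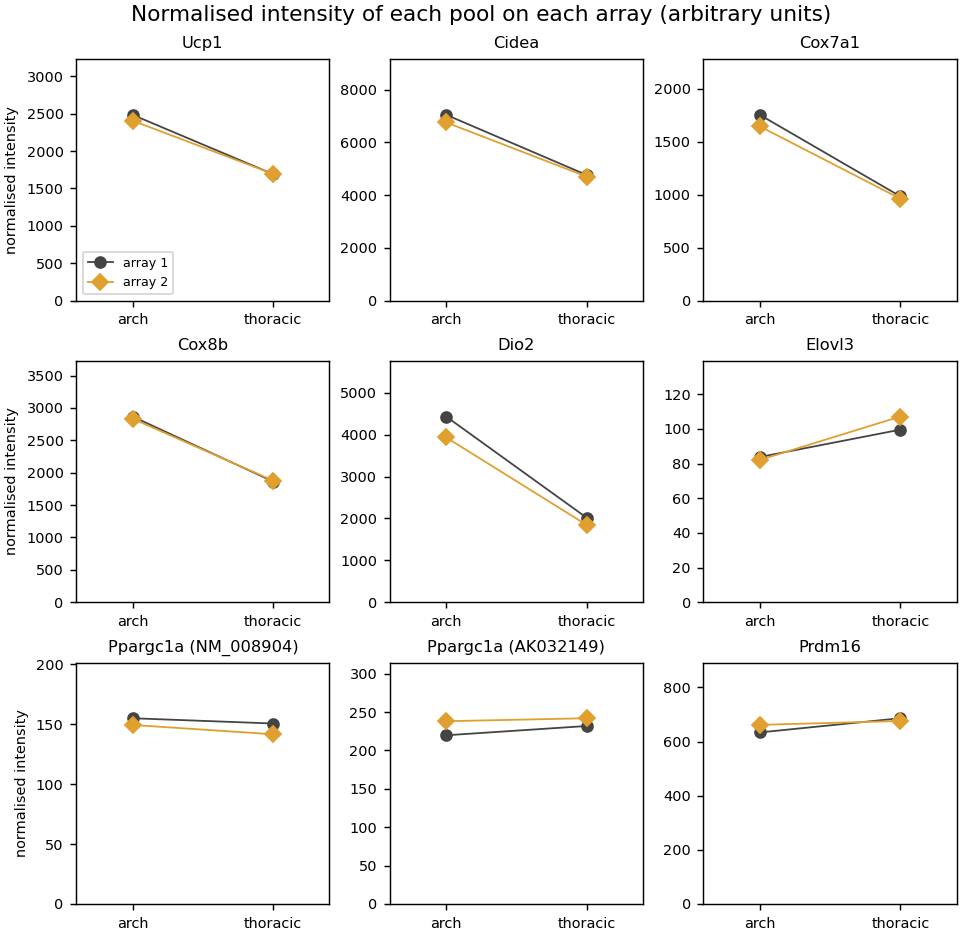
Normalised intensity (y axis, arbitrary units, from 0) of each probe in the arch pool (left) and the thoracic pool (right), with 1 line per array. For Ucp1, Cidea, Cox7a1, Cox8b and Dio2 both arch values are above both thoracic values, and for Elovl3 both are below. For Prdm16 both are also below, by little, and for Ppargc1a the lines are nearly level. The share of all probes whose pools do not overlap was not counted.

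The transcriptional regulators among the members, Prdm16 and Ppargc1a, did not share this difference. Prdm16, the zinc finger protein that favours the brown over the muscle fate, gave 633.6 and 661.5 in the arch pool and 686.1 and 676.0 in the thoracic pool (-0.07 ± 0.06). Both arch values were lower, by little more than the spread between arrays. Ppargc1a, the coactivator of mitochondrial biogenesis, had 155.1 and 149.5 in the arch pool against 150.7 and 141.7 in the thoracic pool with the probe for NM_008904 (0.06 ± 0.03). Its other probe, designed on the clone AK032149, gave 219.8 and 238.1 in the arch pool against 231.9 and 242.0 in the thoracic pool (-0.05 ± 0.04). The pools overlapped with both probes, and the probes pointed in opposite directions, so no direction was measured for Ppargc1a. Ucp1, the lowest of the 5 higher genes, lay above the higher Ppargc1a probe by 0.51 on array 1 and 0.43 on array 2, which was the widest gap between neighbours in the order.

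Elovl3, an elongase of very long chain fatty acids that is induced in brown fat by cold, was the only member lower in the arch by more than 0.1 in log2. Its normalised intensities were 83.8 and 82.1 in the arch pool and 99.6 and 107.2 in the thoracic pool (-0.32 ± 0.10, 1.25-fold higher in the thoracic pool). The probe was dim. Its raw signals were 116.6 and 108.4 in the arch pool, against 123.0 and 141.9 in the thoracic pool, while negative control spots averaged 94.8 and 77.6 in the arch channel and 77.0 and 97.1 in the thoracic channel. The size of the difference moved with the background treatment. In the scanner software's deposited ratios it was -0.85 on both arrays, or 1.80-fold higher in the thoracic pool, which is past 1.5-fold on each array. Dio2, Cox7a1 and Cox8b passed that limit in the arch direction in the deposited ratios, as did 2.2% of all probes, against 0.693% in the thoracic direction. Without background subtraction it was -0.17. The scanner software's own error model, which covers spot error on 1 array only, gave Elovl3 p-values of 0.262 and 0.0633.

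The same error model set the 5 higher genes apart from the other probes. Its p-value was at most 0.01 on both arrays for Ucp1, Cidea, Cox7a1, Cox8b and Dio2, with values for Ucp1 of 7.3e-04 and 0.00228 on arrays 1 and 2, and at least 0.49 on each array for both Ppargc1a probes and Prdm16. Of all probes compared, 1.92% met that limit in the arch direction and 0.724% in the thoracic direction. These p-values say nothing about mice. Averaged without turning, as red over green, the 9 ratios lay between -0.07 and 0.04. The loess curve itself centres red over green at each brightness, so these values cannot show how far the dyes differed. With median centring in its place the arrays lay further apart, as for Dio2 (0.75 on array 1 and 1.33 on array 2).

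The sign of each probe's mean was the same in 9 alternative forms of processing, while the sizes varied. These forms were not independent. Filters on dim probes changed no value, and the deposited series-wide ratios repeated those of the scanner software. Each array alone is part of the main mean. Dio2 ranged between 1.04 and 1.14, Cox7a1 between 0.75 and 0.83, Cox8b between 0.54 and 0.62, Cidea between 0.43 and 0.57 and Ucp1 between 0.48 and 0.56. Of the 3 past 1.5-fold, only Dio2 stayed past 1.5-fold on each array when the arrays were centred on their medians in place of the loess curve. In that setting the arrays lay further apart, and Ucp1 stood at 0.21 on array 1 and 0.74 on array 2.

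**Figure D3:**
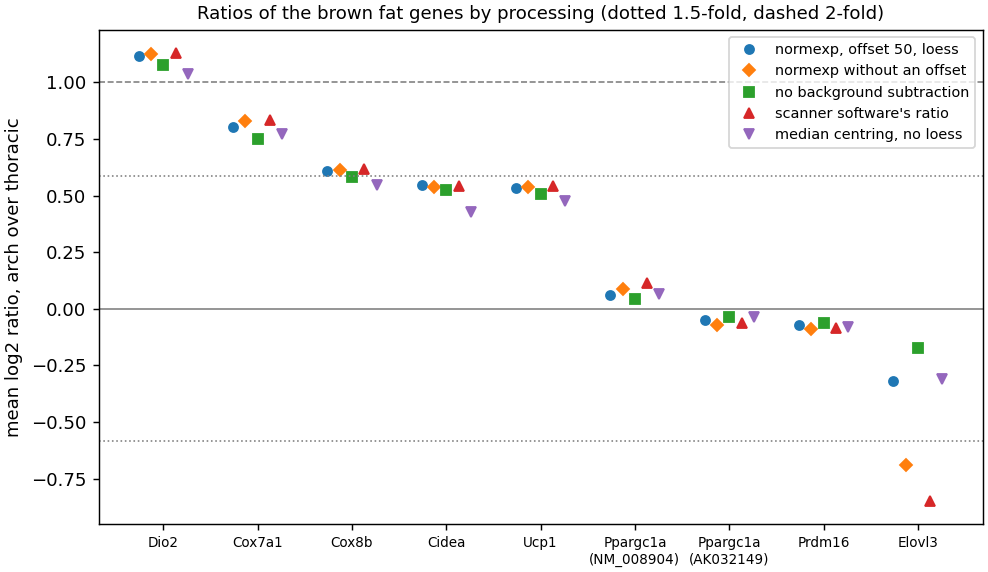
Mean log2 ratio of arch over thoracic (y axis) for each probe (x axis) under 5 forms of processing. Only Elovl3, the dimmest probe, moves widely, between -0.85 and -0.17.

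Related genes were set beside the members. Within cytochrome c oxidase Cox7a1, Cox8b and Cox6a2 stood above their widely expressed partners, while the other subunits lay on both sides of 0. Cox7a2, the widely expressed partner of Cox7a1, stood at 5951 and 5617 in the arch pool against 7356 and 7548 in the thoracic pool (-0.37 ± 0.09), so the ratio of Cox7a1 exceeded that of Cox7a2 by 1.17 ± 0.04. Cox8a, the widely expressed partner of Cox8b, stood at -0.16 ± 0.02, which was 0.79 and 0.73 below Cox8b. Cox6a2, the form of subunit VIa in heart and skeletal muscle, passed the 2-fold rule (1.04 ± 0.05), and its partner Cox6a1, singled out after its value was seen, stood at 0.15 ± 0.09, which turned to -0.09 with median centring. Of 13 partner and common subunits compared Cox6a2 was the only one past 1.5-fold, 6 lay above 0 and 7 below, and the median was -0.08. Cox5a, a common subunit, was the next highest at 0.34 ± 0.05, Cox4i1, the common form of subunit IV, stood at 0.21 ± 0.14, and Cox7b, also common, at -0.32 ± 0.16. Cox4i2, the form of subunit IV abundant in lung, was dim and stood at -0.08 ± 0.01.

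**Figure D4:**
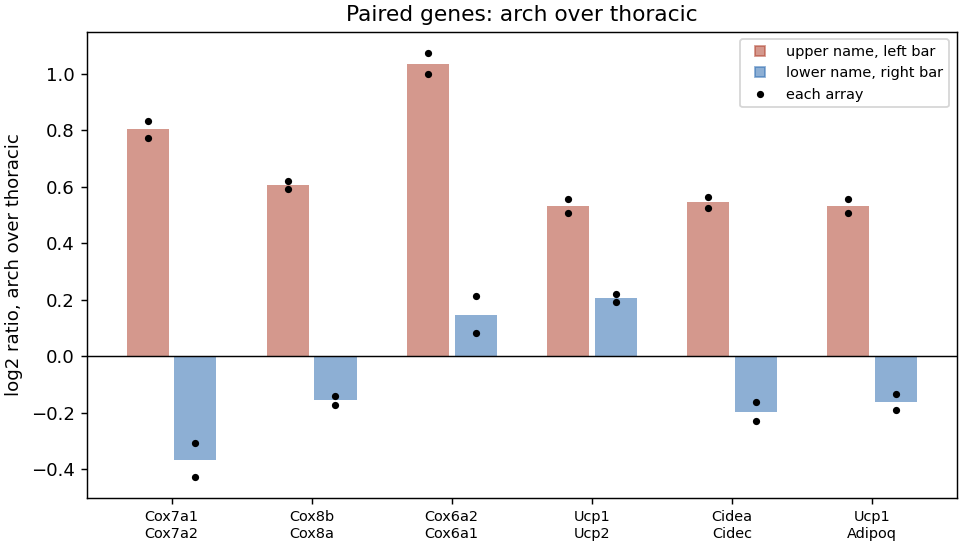
Log2 ratio of arch over thoracic (y axis) for pairs of genes, with the upper name as the left bar, the lower name as the right bar and a point per array. Cox7a1, Cox8b and Cox6a2 are above their widely expressed partners, and Ucp1 and Cidea are above Ucp2, Cidec and Adipoq on both arrays. Cox6a1 and Adipoq were singled out after their values were seen. Of 20 adipocyte markers 14 lay above 0 and 6 below, and Lpl, not drawn here, stood above Ucp1 at 0.95.

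Other members of the same families were measured beside each gene. Ucp2, a widely expressed uncoupling protein, stood at 0.21 ± 0.02. Ucp3, the muscle form, had a dim probe and stood at 0.03 ± 0.04. Cidec, the relative of Cidea in white fat, stood at -0.20 ± 0.05, below Cidea by 0.80 on array 1 and 0.69 on array 2. Cideb, at -0.08 ± 0.09, was dim. The other deiodinases were dim as well, with Dio1 at -0.03 ± 0.02 and Dio3, which inactivates thyroid hormone, at 0.18 ± 0.06 (0.79 in the deposited ratios). Ppargc1b, the relative of Ppargc1a, stood at 0.03 ± 0.06, between the values of the Ppargc1a probes, and the elongase Elovl6 at -0.06 ± 0.08.

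Across 13 lists of thermogenic and related genes, 173 of 182 genes could be compared beside the 8 members, each by its brightest probe. Of these 5 were at least 1.5-fold higher in the arch on each array (2.89%) and 0 in the thoracic pool, against 1.2% and 0.386% of all 22811 genes compared. Of the 173, 3 passed the 2-fold rule, all higher in the arch, against 0.473% of all genes, and 168 passed 1.5-fold in neither direction. The 5 were Cox6a2, Lpl, Pdk4, Sln and Alpl. The median was 0.07, against -0.01 for all genes.

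As lists, the upstream signal and the regulators had lower medians than the member probes (0.53), although the regulator Zic1 had a ratio as high as that of Ucp1. None of 16 beta-adrenergic genes passed 1.5-fold (median 0.08), with the cyclase Adcy6 at 0.35 ± 0.19, the G protein Gnas at 0.27 ± 0.00 (its 7 probes ranging between -0.10 and 0.27) and the kinase subunit Prkar2b at 0.24 ± 0.05. Nor did the brightest probe of any of 25 transcriptional regulators (median 0.03), although a further probe of Esrrg, an estrogen-related receptor, stood at 0.75 against 0.01 for its brightest. In that list the brown fat marker Zic1, a dim probe, stood at 0.55 ± 0.04, but at 1.33 with the offset left out and 1.58 in the deposited ratios, while Cebpd stood at 0.50 ± 0.06, the mitochondrial DNA factor Tfam at 0.49 ± 0.06 (a further probe at -0.05) and Lhx8, not well above background in every channel, at -0.33 ± 0.02 (-1.23 in the deposited ratios). The 12 repressors of the programme had a median of 0.12 with 0 past 1.5-fold, led by Tle3 at 0.33 ± 0.04. Of 8 thyroid hormone genes 0 passed (median 0.06).

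Of 23 genes of fatty acid uptake and oxidation 2 passed 1.5-fold in the arch direction, against 1.2% of all genes. In this list 19 lay above 0, a share that was not counted over all genes. Lpl, which frees fatty acids from lipoproteins, had 3086 and 2709 in the arch pool against 1497 and 1488 in the thoracic pool (0.95 ± 0.13). The other was Pdk4, which restrains glucose oxidation (0.88 ± 0.08). Acaa2, a thiolase of beta-oxidation, stood at 0.44 ± 0.03 and Fabp3 at -0.21 ± 0.01. The median was 0.15, against -0.01 for all genes. Of 16 lipolysis and lipid droplet genes 0 passed (median 0.01), with the droplet coat protein Plin2 highest at 0.59 ± 0.03. Of 9 mitochondrial carriers 0 passed (median 0.06), and this median turned to -0.03 with median centring. Of 18 brown and beige fat enriched genes 0 passed (median 0.02), with 10 above 0 and 8 below. The beige marker Tbx1 stood lowest at -0.66 ± 0.13, and Bmp7, a growth factor of brown fat development, highest at 0.40 ± 0.17 (0.72 in the deposited ratios). Mpzl2 stood at 0.35 ± 0.04. Tmem26, a beige marker with a dim probe, stood at 0.32 ± 0.02, but at 0.89 with the offset left out and 1.19 in the deposited ratios.

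**Figure D5:**
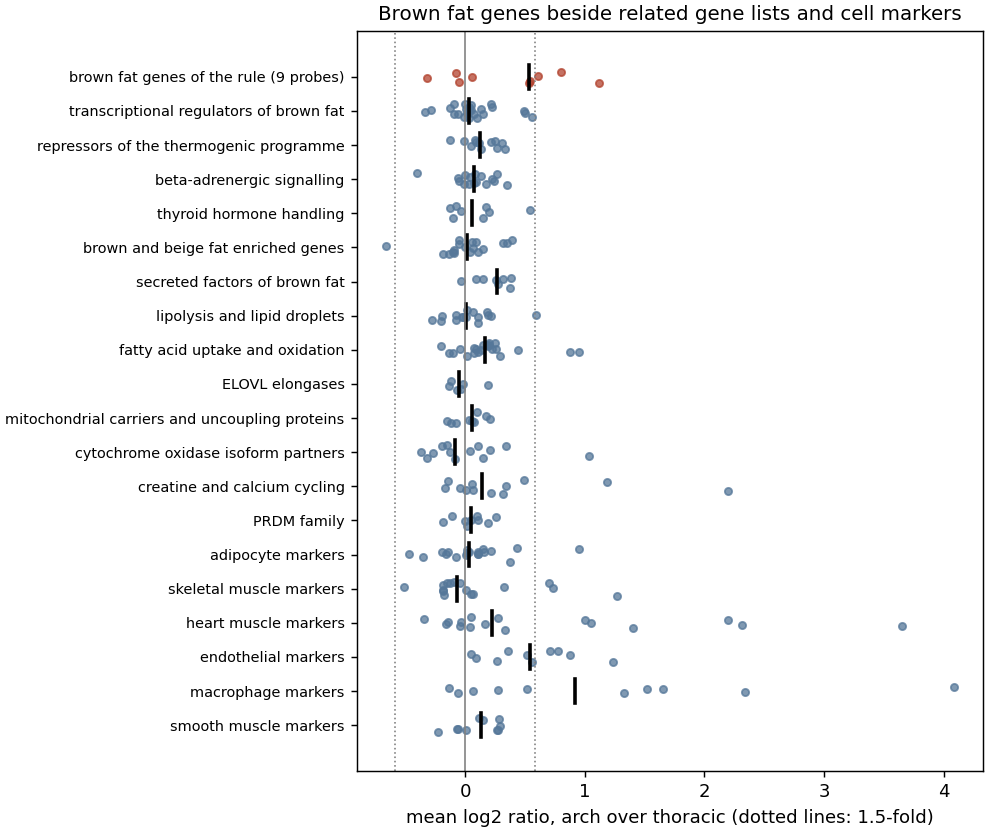
Mean log2 ratio of arch over thoracic (x axis) for the 9 brown fat probes (top row) and for the genes of 13 related lists and 6 marker lists, with 1 point per gene, saturated probes left out and the median as a bar. The median of the brown fat probes is 0.53, and those of the 13 related lists lie between -0.08 and 0.27.

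Markers of other cells moved with the segments too. General adipocyte markers lay on both sides of 0, with 14 of 20 above 0, a median of 0.03 and only Lpl past 1.5-fold, a limit that Ucp1 itself missed. Lpl (0.95 ± 0.13), Retn (-0.47 ± 0.15), Scd1 (0.43 ± 0.02) and Pck1 (0.37 ± 0.01) differed most. Adipoq (adiponectin), singled out after its value was seen, gave 3817 in the arch pool against 4187 in the thoracic pool on array 1 and 3666 against 4179 on array 2 (-0.16 ± 0.04). The ratio of Ucp1 exceeded that of Adipoq by 0.69 and 0.70 on the arrays. The summed intensity of the 19 unsaturated adipocyte genes was 60398 and 58948 in the arch pool against 59643 and 60764 in the thoracic pool, which overlapped. Levels of different probes are not comparable, and the brightest gene carried this sum: without Cfd it was 41788 and 41808 in the arch pool against 37543 and 37334 in the thoracic pool, higher in the arch on both arrays. In all, 19 of the 20 were well above background in both pools, the exception being Lep.

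Cox7a1, Cox8b and Cox6a2 are also genes of striated muscle. Of all genes compared, 0.473% passed the 2-fold rule and 1.2% the 1.5-fold limit in the arch direction. Of 16 heart muscle markers 6 passed the 2-fold rule, all higher in the arch, which holds the aortic root, led by Myl7 (3.65 ± 0.12) and Tnnt2 (2.32 ± 0.13). The other 10 passed 1.5-fold in neither direction. Over the 16 the median was 0.22, with 11 above 0 and 5 below, and Myh7 was lowest at -0.34 ± 0.08. Sln, among the 6, had another probe at -0.01. The summed intensity of the heart list was 29456 and 32319 in the arch pool against 24214 and 22479 in the thoracic pool, most of it from Actc1. Without Actc1 it was 8276 and 8279 in the arch pool against 3104 and 3369 in the thoracic pool. Of 16 skeletal muscle markers 3 passed 1.5-fold, led by Mb (1.27 ± 0.10), with a median of -0.07 and overlapping sums of 16571 and 16212 in the arch pool against 15243 and 16369 in the thoracic pool. Every marker compared from both muscle lists was well above background in both pools. The part of heart muscle in the difference of the cytochrome oxidase genes, and that of adipocytes in those of the other members, was not tested. The perfusion was meant to remove endothelium. Of 10 macrophage markers 5 and of 10 endothelial markers 4 passed 1.5-fold in the arch direction. Of the macrophage markers 8 lay above 0 and 2 below. Summed intensities, arch against thoracic, were 26147 and 25647 against 9415 and 9397 for macrophages. Without Cd5l, the brightest, they were 16017 and 15746 against 8855 and 8777. For endothelium the sums were 2806 and 2780 against 1776 and 1747. The part of these cells in the results was not tested. The 12 smooth muscle markers had a median of 0.20, which turned to -0.02 with median centring, 0 passed 1.5-fold, and 2 of them sat on saturated probes.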

How the data were processed

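Two-colour Agilent whole-genome arrays were read from the scanner tables. The deposited intensity values are mean signals and local background medians per spot, unnormalized, from Feature Extraction, for which the file headers give version 8.1.1.1 (9.1.1.1 per the submitters' processing notes). The deposited log10 ratios are red over green processed signal, background-subtracted and dye-normalized by lowess per the file headers, and the deposited p-value per spot covers spot error on 1 array. A deposited series-wide table repeats log10 ratios. Set against the scanner ratios it correlated at -1.00 and 1.00, with column medians of 0, so it already runs arch over thoracic. No source used here gives the genome build of the probes.

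Signals were corrected by normexp (offset 50) and loess within each array, with control spots at weight 0, in limma 3.58.1 (R 4.3.3). Outlier spots were left out (8 and 5), replicate spots were averaged, the ratio of array 1 was reversed by its labelled dyes to give arch over thoracic, and log2 ratios of both arrays were averaged. Probes were compared where 1 RNA or more was well above background on array 1 and on array 2. Intensities per pool were further scaled by Aquantile. Gene names of list members came from RefSeq (GRCm38.p6), where 21445 probes matched by accession, 5431 by symbol and 4636 by synonym and 9662 kept the file's name. All members' probes are named, and up to 4 genes per list, those past the 2-fold rule first and then by size, plus a few partners. Some genes that this rule names are not reported here. Members and lists were chosen with earlier results of these data known. The steps were tested on simulated data. Alternatives were other background and dye corrections, deposited ratios, each array alone, other filters on dim and saturated probes, other probe summaries and the scanner's error model. Arrays have no read depth, and their number limits the precision.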

Additional observations from a re-analysis of the deposited data

How the results depend on the processing

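The count of probes past 2-fold stayed at 1 under every alternative form of processing, and was 5 where the scanner software's p-value at most 0.01 on both arrays replaced the size rule. The count past 1.5-fold was 3, between 3 and 3 with either array alone, 2 without background subtraction, and 1 with median centring in place of loess. The median over the probes was 0.53, between 0.51 and 0.56 with either array alone, and 0.43 with median centring. The median of the brightest 10% of probes was 0.02 after loess and -0.07 after median centring, and the cause of the lower values was not tested. Leaving out the brightest gene of each marker list, chosen after seeing the data, ended the overlap of the adipocyte sums. Elovl3 moved most, to -0.85 in the deposited ratios and -0.69 with the offset left out. No filter on dim or saturated probes changed any value, as all 9 probes were well above background in both RNAs and 0 were saturated. No paired analysis was possible because each segment was a single pool. Ratios of dim probes are narrowed by the offset.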

Other observations

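Other families around the members differed little between the segments. Of 9 genes of the PRDM family 0 passed 1.5-fold, and the median was 0.04. Mecom, the closest relative of Prdm16, had the highest value with 0.26 ± 0.06, and a further probe of it stood at -0.06. Prdm8 stood at 0.19 ± 0.03. The 6 other elongases had a median of -0.05, with Elovl1 at 0.19 ± 0.07 and Elovl4 at -0.14 ± 0.03.

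Creatine and calcium cycling are known as routes of heat production that do not need UCP1. Of 12 such genes 2 passed the 2-fold rule, both higher in the arch, against 0.473% of all genes, and the median was 0.14. Sln, sarcolipin, a regulator of the calcium pump that is also an atrial muscle gene, stood at 681.4 and 743.3 in the arch pool against 153.8 and 156.7 in the thoracic pool (2.20 ± 0.07), while its other probe was at -0.01. Alpl, an alkaline phosphatase, stood at 574.0 and 586.9 in the arch pool against 248.6 and 261.6 in the thoracic pool (1.19 ± 0.03). Ckmt1, a mitochondrial creatine kinase, stood at 0.49 ± 0.17, and Ckmt2, not well above background in every channel, at 0.34 ± 0.03. Of 8 factors that brown fat secretes 7 lay above 0 and 0 passed 1.5-fold (median 0.27), with Lcn2 at 0.38 ± 0.10, Gdf15 at 0.38 ± 0.01 and Il6 at 0.31 ± 0.17. Several of these probes were dim, and in the deposited ratios Ckmt1 stood at 0.74, Ckmt2 at 1.17, Lcn2 at 0.87 and Il6 at 0.71.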
